A study of Mus musculus with 14 samples.

Results

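Glucocorticoid-responsive genes are genes whose transcription follows the adrenal steroid hormone corticosterone in mice, or cortisol in people. The 10 described here are Nr3c1, which encodes the glucocorticoid receptor, and 9 genes that the receptor is known to induce in many tissues, namely Fkbp5, Tsc22d3, Zbtb16, Ddit4, Sgk1, Klf9, Mt1, Mt2 and Cebpd. They were found by symbol among the 24054 rows of a table of read counts per gene, where all 10 were present, and all 10 passed the filter on low counts that left 13588 genes. Counts came from poly(A) RNA of the mouse left ventricle, sequenced in 14 libraries.

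The labels place the libraries in 3 groups, all of the strain written C56Bl6. The 5 control libraries came from mice kept on control diet for 10 weeks, and no virus is named for them. The 4 HFpEF-scr libraries came from mice fed the High-Fat + L-NAME diet, labelled 6 weeks, which also received an adeno-associated virus (AAV) with a scrambled short hairpin RNA, labelled 4 weeks. L-NAME blocks nitric oxide synthases, and together with a high-fat diet it is used to model heart failure with preserved ejection fraction (HFpEF). The 5 libraries labelled HFpEF-FoxO1-sh had the same diet and times, with a hairpin against Foxo1 in place of the scrambled sequence. Diet, virus and diet duration therefore changed together between the controls and both HFpEF groups and cannot be told apart. The labels name neither the virus serotype nor the promoter of the hairpin, and they do not say whether replicates come from different animals. A p below therefore covers only library-to-library spread, which may be technical. The labels give no hormone level and no hour of harvest.

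The glucocorticoid receptor waits in the cytoplasm in a complex with heat shock proteins, moves to the nucleus when it binds hormone, and binds DNA as a dimer at an element made of inverted arms. Fkbp5 encodes a cochaperone that lowers the receptor's affinity for hormone and so closes a feedback loop. In heart muscle the receptor is known to act on fuel use, contraction and inflammation, and the hormone follows a daily rhythm and rises with stress.

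The letters of this element can be read in the sequences before the starts of these genes. RefSeq promoter sequences (GRCm38.p6) were matched by symbol for 7 of the 10 genes, as 14 windows of the 250 bases before a transcript start. No window was matched for Nr3c1, Zbtb16 and Cebpd. A full element, searched as AGAACA and TGTTCT with any 3 bases between them, was found in 1 of the 14 windows, before a start of Sgk1 that lies within the longer Sgk1 transcripts. Of all 32851 windows of the same length, 3 held it (0.00913%). The single arm AGAACA, searched on both strands and also counted inside a full element, was in 4 windows of 2 of the genes, Sgk1 and Tsc22d3, against 16.1% of all windows. The metallothionein genes are also known for metal response elements, whose core was searched as TGCACNC or TGCGCNC on both strands. It was found 3 times before Mt2, against 5.17% of all windows with 2 or more, and in 1 place each before Mt1 and Ddit4, against 21.4% of all windows with at least 1. Only the bases before each matched start were searched, so cores past that start were not counted. The 3 windows below are shown because they carry the full element or the metal cores. They run 5′ to 3′ on the gene's strand, with arms, full element and metal cores in capitals. The Sgk1 window is chr10:21993640-21993889, where the full element begins 189 bases before the start and a further arm 242 bases before it. The Mt1 stretch is chr8:94178839-94179081, which stops before the annotated exon, and the Mt2 window is chr8:94172368-94172617, with cores that begin 223, 128 and 50 bases before the start. A match of letters is a description and not evidence of binding.
Sgk1: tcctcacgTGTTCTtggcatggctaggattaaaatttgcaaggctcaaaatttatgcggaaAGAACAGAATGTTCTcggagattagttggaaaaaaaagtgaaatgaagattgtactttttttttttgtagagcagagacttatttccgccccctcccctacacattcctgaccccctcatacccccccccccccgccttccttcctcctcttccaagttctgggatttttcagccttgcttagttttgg
Mt1: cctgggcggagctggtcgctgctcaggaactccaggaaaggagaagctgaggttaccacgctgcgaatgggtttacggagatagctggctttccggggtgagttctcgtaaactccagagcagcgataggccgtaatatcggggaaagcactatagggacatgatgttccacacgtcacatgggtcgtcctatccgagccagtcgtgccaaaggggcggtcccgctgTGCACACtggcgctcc
Mt2: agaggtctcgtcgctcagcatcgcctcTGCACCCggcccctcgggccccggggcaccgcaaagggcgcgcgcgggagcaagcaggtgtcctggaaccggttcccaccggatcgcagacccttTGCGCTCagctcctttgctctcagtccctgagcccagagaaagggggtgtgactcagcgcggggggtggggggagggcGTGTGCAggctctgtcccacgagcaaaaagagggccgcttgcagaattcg

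Library totals were between 13.17 and 15.38 in units of 1000000 counts, apart from control 1 with 21.25, and 16110 to 16531 genes had a count. Heart muscle markers (Myh6, Actc1, Tnnt2 and 4 others) summed to between 84800 and 103000 CPM (counts per 1000000, scaled by the trimmed mean of M values), and fat cell markers to at most 1.93 CPM. Foxo1 was not lower in the libraries carrying the hairpin against it, with 39.3 to 46 CPM against 40.1 to 48.3 CPM in HFpEF-scr (log2 fold change -0.04, adjusted p = 0.78, edgeR), so those libraries are named by their label and no direction drawn from them shows an effect of less Foxo1.

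All 10 genes were expressed in the control ventricle at levels well above the counting limit. The lowest count of any library was 58, for Mt2, and the other 9 genes had at least 200. Levels can be compared between genes only per length, here as control CPM per kilobase of annotated exon. This length joins the exons of all annotated transcripts, such as 1246 bases for Mt1, 3746 for Cebpd and 9468 for Fkbp5. The order below depends on it, and which transcripts were expressed was not tested. Mt1 was highest with 48.7 ± 6.3 (SD, n = 5), followed by Klf9 with 36.6 ± 1.96, and the ranges of these genes did not overlap. Sgk1, Nr3c1, Tsc22d3, Zbtb16, Ddit4 and Mt2 followed, with means from 20.7 down to 11.5, and neighbours in this order overlapped. Cebpd with 4.86 ± 1.52 and Fkbp5 with 1.93 ± 0.374 came last, without overlap between Mt2 and Cebpd or between Cebpd and Fkbp5.

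HFpEF-scr was compared with the controls to ask how the diet model with the scrambled virus changed these genes. Ddit4, an inhibitor of the growth kinase mTORC1, rose by 1.23 ± 0.30 (log2 fold change ± SE, adjusted p = 0.0233). Cebpd, which encodes a leucine zipper transcription factor of acute responses, rose by 1.03 ± 0.27 (adjusted p = 0.0298). Tsc22d3, whose product GILZ is an anti-inflammatory mediator of glucocorticoids, rose by 0.52 ± 0.15 (adjusted p = 0.0421). Adjusted p are Benjamini-Hochberg values of edgeR's quasi-likelihood test over all genes tested, called under 0.05. So 3 of 10 members rose and 0 fell. Among all genes tested, 3.66% rose and 3.67% fell (7.34% called in all). The count of members rested on single libraries. It was 0 without control 2, control 3, HFpEF-scr 2 or HFpEF-scr 4, where 3.97% to 4.75% of all genes were called. The count was 1 without control 1 (8.17% of all genes) or when only the 2 groups were fitted (3.75%), and 5 without HFpEF-scr 3 (6.09%). The fold change was above 0 for all 10 members, against 50.4% of all genes, and the members' median was 0.72 against 0.00 over all genes. Without HFpEF-scr 4 the median was 0.27 and 9 of 10 were above 0, Klf9 being at -0.06, and 3.99% of all genes were called. In 1 of the 10, Ddit4, the groups did not overlap in CPM, as in 8.94% of all genes. The members were chosen with earlier results of these data known, and they were measured in the same libraries. Their counts and medians beside all genes, here and below, are therefore descriptions and not tests.

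Between HFpEF-FoxO1-sh and HFpEF-scr none of the 10 members was called in either direction by edgeR, DESeq2 or limma voom, where edgeR called 3.57% of all genes, 1.31% as higher and 2.26% as lower. At an unadjusted p under 0.05 there were 2 of 10, Mt2 and Cebpd, both with a fold change below 0, against 19.7% of all genes. The members' median was -0.14, and 1 of 10 members, Zbtb16, had a fold change above 0, against 51.3% of all genes. Leaving out a single library moved the median between -0.33 (without HFpEF-scr 3) and -0.09 (without HFpEF-scr 4) and the number above 0 between 0 and 4. Without HFpEF-scr 4 the members above 0 included Fkbp5 (0.73) and Tsc22d3 (0.15). Without HFpEF-scr 3 the members called were 2, with 2.04% of all genes called. No member had groups that did not overlap, against 8.33% of all genes.

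Between HFpEF-FoxO1-sh and the controls 1 of 10 members rose, Tsc22d3, by 0.48 ± 0.14 (adjusted p = 0.0334), and 0 fell, where edgeR called 13% of all genes and 6.68% as higher. The members' median was 0.33, and 9 of 10 had a fold change above 0, against 49.2% of all genes. Tsc22d3 lost its call in 6 of the 10 fits that left out a library. A fit of the 2 groups alone called 3 members and 15.6% of all genes. The median was 0.20 without HFpEF-FoxO1-sh 5, with 8 members above 0, 0.22 without control 2 and 0.52 without control 5. Groups did not overlap for 2 members, Tsc22d3 and Fkbp5, as for 12.1% of all genes. The 3 comparisons share libraries in pairs, so their values stand side by side here and are no independent support for each other.

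**Figure D1:**
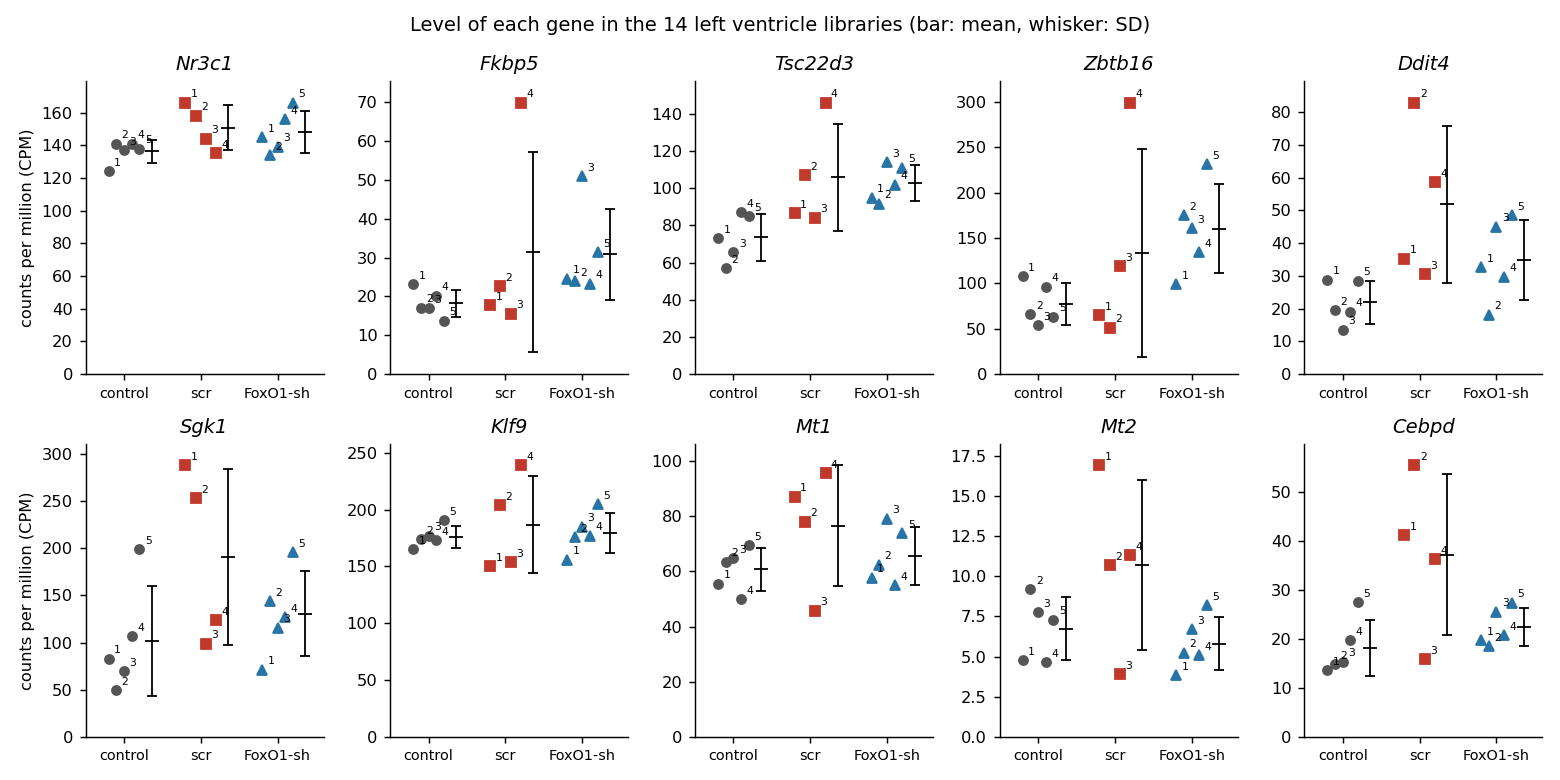
Level of each of the 10 genes in each library, in CPM on axes that start at 0. Points are libraries with their replicate numbers, and the bar and whiskers to their right are mean and SD of the group (control n = 5, HFpEF-scr n = 4, HFpEF-FoxO1-sh n = 5). Fkbp5 and Zbtb16 were highest in HFpEF-scr 4, with 69.9 and 299 CPM, whereas Sgk1 was highest in HFpEF-scr 1 with 288 CPM.

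**Figure D2:**
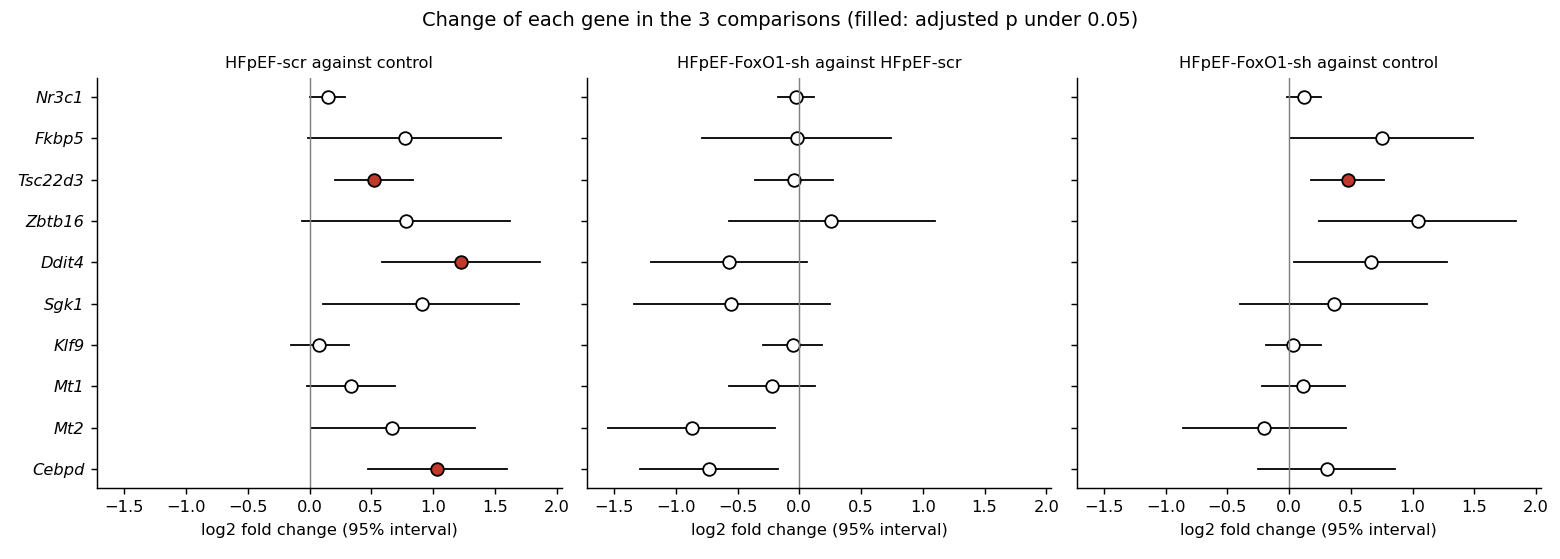
Fitted log2 fold change of each gene in the 3 comparisons, with its 95% interval. Filled points passed an adjusted p of 0.05, namely Tsc22d3, Ddit4 and Cebpd in HFpEF-scr against control, and Tsc22d3 in HFpEF-FoxO1-sh against control.

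The receptor gene itself varied little. Nr3c1 had 124, 141, 137, 141 and 138 CPM in controls 1 to 5, 166, 158, 144 and 135 CPM in HFpEF-scr 1 to 4, and 145, 134, 139, 156 and 166 CPM in HFpEF-FoxO1-sh 1 to 5. The ranges of the 3 groups overlapped, and control 1 was the lowest of all libraries. The log2 fold change was 0.15 ± 0.07 in HFpEF-scr (95% interval 0 to 0.29, adjusted p = 0.207) and 0.12 ± 0.07 in those labelled HFpEF-FoxO1-sh (adjusted p = 0.247), each against control. The interval for HFpEF-FoxO1-sh against HFpEF-scr ran from -0.17 to 0.12. Its SD within groups on the log2 scale was 0.11, and 39.1% of all genes had a smaller one.

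Fkbp5, the feedback cochaperone (chromosome 17, 28399094 to 28517527 on GRCm38, minus strand), was set apart by a single HFpEF-scr library. Controls 1 to 5 had 23.1, 17.1, 17, 20.2 and 13.8 CPM, HFpEF-scr 1 to 4 had 17.8, 22.6, 15.6 and 69.9 CPM, and HFpEF-FoxO1-sh 1 to 5 had 24.6, 23.9, 51, 23.3 and 31.4 CPM. The HFpEF-scr libraries 1 to 3 lay inside the control range and HFpEF-scr 4 far above it, while all 5 libraries labelled HFpEF-FoxO1-sh lay above the highest control, numbers 1, 2 and 4 narrowly and numbers 3 and 5 by more. Against control the log2 fold change was 0.77 ± 0.37 in HFpEF-scr (adjusted p = 0.216), but 0.02 when HFpEF-scr 4 was left out (adjusted p = 0.973). For libraries labelled HFpEF-FoxO1-sh against control, 0.75 ± 0.35 was found (adjusted p = 0.181), and a fit of these 2 groups alone gave an adjusted p of 0.0247. Between the HFpEF groups it was -0.02 ± 0.36, with an interval from -0.79 to 0.74.

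Zbtb16, which encodes the zinc finger repressor PLZF (chromosome 9, 48654297 to 48836222, minus strand), had the same high library. It had 108, 66.3, 54.2, 96.3 and 63.3 CPM in controls 1 to 5, 65, 51, 119 and 299 CPM in HFpEF-scr 1 to 4, and 99.3, 175, 161, 134 and 231 CPM in HFpEF-FoxO1-sh 1 to 5. HFpEF-scr 1 and 2 were at or below the middle of the controls and HFpEF-scr 4 was the highest of all, whereas 4 of the 5 libraries labelled HFpEF-FoxO1-sh exceeded every control. The log2 fold change against control was 0.78 ± 0.40 in HFpEF-scr (adjusted p = 0.248) and 0.01 without HFpEF-scr 4 (adjusted p = 0.988). For libraries labelled HFpEF-FoxO1-sh it was 1.04 ± 0.38 (adjusted p = 0.0829), and the fit of these 2 groups alone gave an adjusted p of 0.00524. Without HFpEF-scr 4 the difference between the HFpEF groups moved from 0.26 ± 0.40 to 1.03, with an adjusted p of 0.0579.

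Tsc22d3 (chromosome X, 140539528 to 140600659, minus strand) was called in both HFpEF groups against control. It had 73, 57.1, 65.5, 87.2 and 85 CPM in controls 1 to 5, 86.5, 107, 84.1 and 146 CPM in HFpEF-scr 1 to 4, and 95, 91.7, 114, 102 and 111 CPM in HFpEF-FoxO1-sh 1 to 5. All libraries labelled HFpEF-FoxO1-sh were above every control, while HFpEF-scr 1 and 3 lay inside the control range. The rise in HFpEF-scr lost its call without control 1, 2 or 3, HFpEF-scr 2 or HFpEF-scr 4, and in a fit of the 2 groups alone (adjusted p = 0.0934). It came to 0.33 when HFpEF-scr 4 was left out (adjusted p = 0.138). That in the libraries labelled HFpEF-FoxO1-sh lost it without control 1, 2 or 3 or HFpEF-FoxO1-sh 3, 4 or 5, with an adjusted p of at most 0.0851. Between the HFpEF groups the difference was -0.04 ± 0.15 (interval -0.36 to 0.27).

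Klf9, a Krüppel-like transcription factor that the receptor induces in many cell types (chromosome 19, 23141226 to 23168134, plus strand), did not pass the test in any comparison. It had 165 to 191 CPM in the controls, 150, 204, 154 and 239 CPM in HFpEF-scr 1 to 4, and 156 to 205 CPM in those labelled HFpEF-FoxO1-sh. The control values lay inside those of HFpEF-scr, where library 4 was again the highest. The log2 fold change against control was 0.08 ± 0.11 in HFpEF-scr (interval -0.15 to 0.32) and 0.03 ± 0.11 in those labelled HFpEF-FoxO1-sh (interval -0.19 to 0.26).

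Ddit4 (chromosome 10, 59949669 to 59951834, minus strand) had the largest fitted rise of the 10 genes in HFpEF-scr against control. Controls 1 to 5 had 28.9, 19.6, 13.6, 19 and 28.5 CPM, HFpEF-scr 1 to 4 had 35.3, 82.9, 30.5 and 58.6 CPM, and HFpEF-FoxO1-sh 1 to 5 had 32.7, 18.2, 45, 29.7 and 48.5 CPM. Every HFpEF-scr library was above every control, libraries 2 and 4 by far, whereas the libraries labelled HFpEF-FoxO1-sh overlapped both other groups. The rise was 2.35-fold, and its call was lost without control 2 or 3 or HFpEF-scr 2 or 4 (0.91 without HFpEF-scr 2, adjusted p = 0.0857). For libraries labelled HFpEF-FoxO1-sh the log2 fold change was 0.66 ± 0.29 against control (adjusted p = 0.156) and -0.57 ± 0.30 against HFpEF-scr (interval -1.2 to 0.06, adjusted p = 0.306).

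Sgk1, a kinase that regulates ion channels and transporters (chromosome 10, 21882184 to 21999903, plus strand), is the gene with the full element printed above. It had 82.8, 49.7, 69.7, 107 and 199 CPM in controls 1 to 5, 288, 253, 98.9 and 124 CPM in HFpEF-scr 1 to 4, and 71.2, 144, 116, 127 and 196 CPM in HFpEF-FoxO1-sh 1 to 5. HFpEF-scr 1 and 2 were the highest of all libraries, control 5 came next, and the groups overlapped in every comparison. The log2 fold change in HFpEF-scr against control was 0.91 ± 0.38 (adjusted p = 0.154), and without control 5 it was 1.30 (adjusted p = 0.0393). In a fit without HFpEF-scr 1 and 2, made after the data were seen, it was 0.13 (adjusted p = 0.901). The libraries labelled HFpEF-FoxO1-sh differed from control by 0.36 ± 0.36 (adjusted p = 0.564) and from HFpEF-scr by -0.55 ± 0.37 (adjusted p = 0.449).

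Cebpd (chromosome 16, 15887286 to 15891031, plus strand) had HFpEF-scr 1 and 2 as its highest libraries, as Sgk1 did. It had 13.6, 14.8, 15.3, 19.7 and 27.5 CPM in controls 1 to 5, 41.2, 55.4, 15.8 and 36.3 CPM in HFpEF-scr 1 to 4, and 19.7, 18.5, 25.5, 20.8 and 27.4 CPM in HFpEF-FoxO1-sh 1 to 5. HFpEF-scr 1, 2 and 4 were above every other library, and HFpEF-scr 3 was among the low controls. The rise in HFpEF-scr lost its call without control 1, 2 or 3 or HFpEF-scr 1, 2 or 4, under limma voom (0.95, adjusted p = 0.0615) and when only the 2 groups were fitted (adjusted p = 0.0771). Among fits that left out a single library it was smallest without HFpEF-scr 2 (0.77, adjusted p = 0.105) and largest without HFpEF-scr 3 (1.29, adjusted p = 0.00179). Without both HFpEF-scr 1 and 2 it was 0.52 (adjusted p = 0.331). Against HFpEF-scr the libraries labelled HFpEF-FoxO1-sh differed by -0.73 ± 0.27 (adjusted p = 0.13), and without HFpEF-scr 3 by -0.98 (adjusted p = 0.0199). Of its annotated exon bases, 15% are shared with Spidr on the opposite strand, and whether counting used strand is not given in the sources used here.

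The metallothioneins Mt1 and Mt2, small cysteine-rich proteins that hold zinc and copper, lie next to each other on chromosome 8 (Mt2 at 94172664 to 94173568 and Mt1 at 94179082 to 94180327, both on the plus strand). Mt1 had 55.6, 63.6, 64.9, 50 and 69.6 CPM in controls 1 to 5, 87.1, 78.1, 45.8 and 95.7 CPM in HFpEF-scr 1 to 4, and 57.8, 62.4, 79.2, 55.1 and 73.9 CPM in HFpEF-FoxO1-sh 1 to 5. Mt2 had 4.78, 9.2, 7.77, 4.65 and 7.29 CPM in controls 1 to 5, 16.9, 10.7, 3.91 and 11.3 CPM in HFpEF-scr 1 to 4, and 3.85, 5.23, 6.69, 5.07 and 8.2 CPM in HFpEF-FoxO1-sh 1 to 5. For both genes HFpEF-scr 1, 2 and 4 were above every control and HFpEF-scr 3 was below them all, so the groups overlapped. Against control the log2 fold change in HFpEF-scr was 0.34 ± 0.17 for Mt1 (adjusted p = 0.235) and 0.67 ± 0.31 for Mt2 (adjusted p = 0.202). Without HFpEF-scr 3 these were 0.52 (adjusted p = 0.0225) and 0.96 (adjusted p = 0.0302). Against HFpEF-scr the libraries labelled HFpEF-FoxO1-sh differed by -0.22 ± 0.17 for Mt1 (adjusted p = 0.5) and by -0.87 ± 0.32 for Mt2 (adjusted p = 0.128), and by -1.15 for Mt2 without HFpEF-scr 3 (adjusted p = 0.0248). Of the Mt2 exon bases, 73.5% are shared with Gm45774 on the opposite strand.

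**Figure D3:**
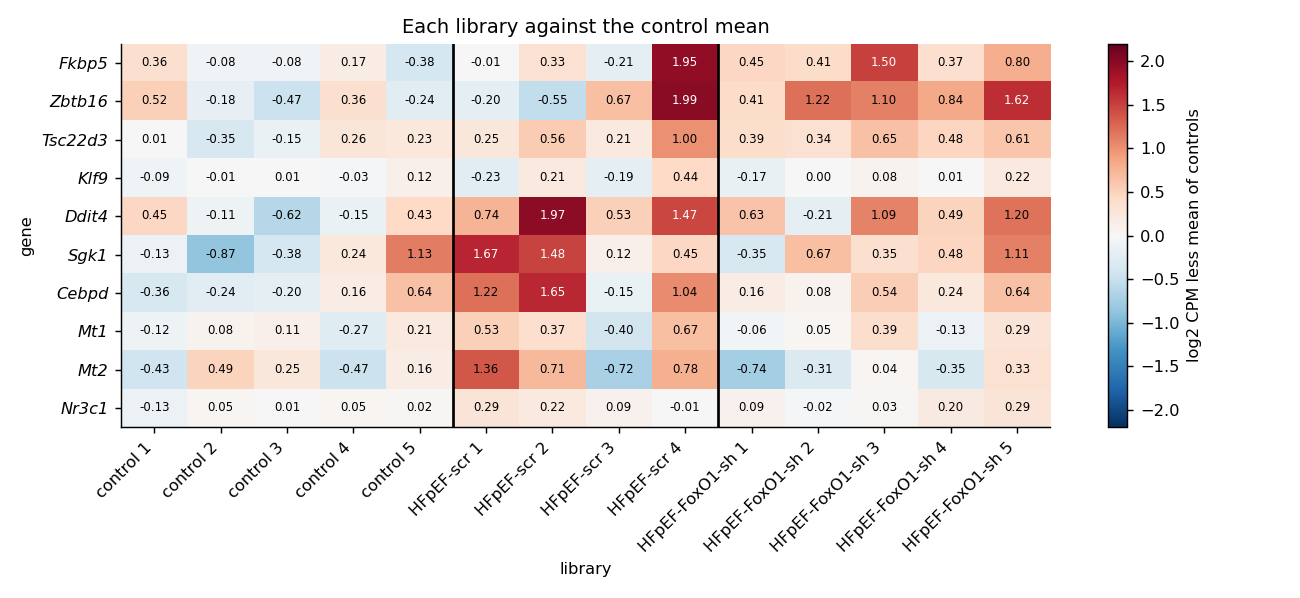
Each library's level of each gene as log2 CPM less the mean of the controls, with the value printed in each field and lines between the groups. Fkbp5 and Zbtb16 stand out in HFpEF-scr 4, Sgk1 in HFpEF-scr 1 and 2, and Nr3c1 stays near 0 across the row.

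The members were not all high in the same libraries. HFpEF-scr 4 was the highest of the 14 libraries for Fkbp5, Zbtb16, Tsc22d3, Klf9 and Mt1. For Sgk1 and Mt2 it was HFpEF-scr 1, and for Ddit4 and Cebpd HFpEF-scr 2. Within-group SDs on the log2 scale were 0.70 for Zbtb16, 0.68 for Sgk1 and 0.61 for Fkbp5, against a median of 0.14 over all genes, and 98.5%, 98.4% and 97.6% of all genes had a smaller one. Mt2, Ddit4 and Cebpd followed with 0.58, 0.55 and 0.49.

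Whether members went up and down together between libraries of the same group was tested over all 45 pairs, as Pearson's r of log2 CPM less the group mean (n = 14 libraries). No pair passed the adjustment over the 45 pairs by a permutation test within groups, with Pearson's r or with Spearman's rho, and 6 pairs had an unadjusted permutation p under 0.05 with Pearson's r. The median r was 0.42, and 37 pairs had an r above 0. Pairs of other genes were not computed, so no share over all genes stands beside these values. The highest was that of Mt1 with Mt2 (r = 0.89, permutation p = 0.00174, adjusted 0.0567, rho = 0.78 with permutation p = 0.00427, adjusted 0.141), which was 0.74 without the 2 libraries farthest from the median of Mt1. Sgk1 with Cebpd had r = 0.75 (permutation p = 0.00252, adjusted 0.0567), rho = 0.75 (permutation p = 0.00626, adjusted 0.141), and 0.71 without the 2 farthest. Tsc22d3 with Klf9 had r = 0.76 (permutation p = 0.00832, adjusted 0.125). Fkbp5 with Tsc22d3 had r = 0.72 (permutation p = 0.0179, adjusted 0.201), which fell to 0.46 without HFpEF-scr 4 and HFpEF-FoxO1-sh 3. Fkbp5 and Sgk1 had r = -0.18. Without HFpEF-scr 1 there were 3 pairs past the adjustment, and without HFpEF-scr 4 or HFpEF-FoxO1-sh 2 there was 1. The labels give no batch within which these values could be repeated.

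**Figure D4:**
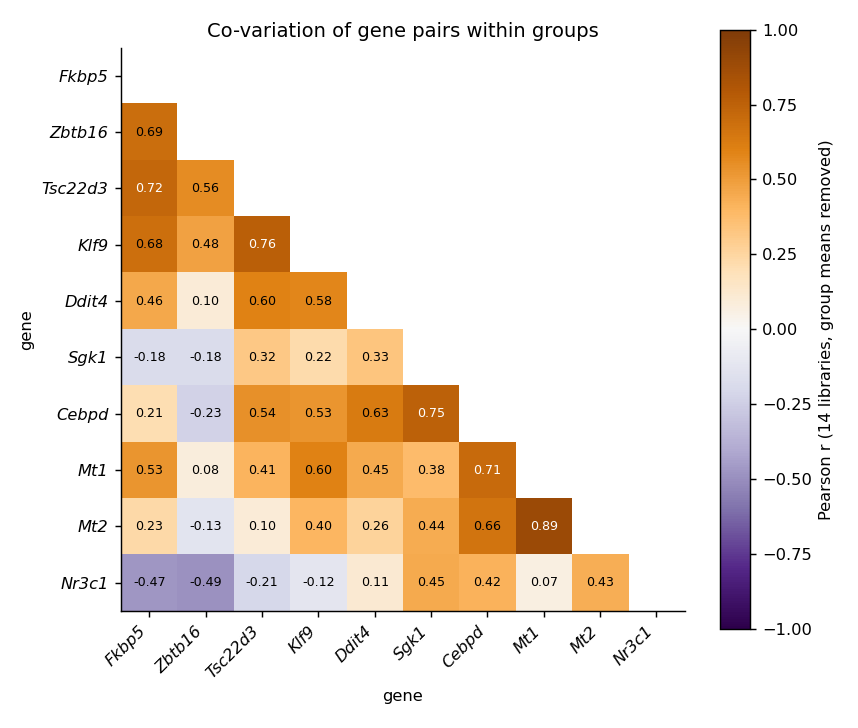
Pearson's r of each pair of the 10 genes over 14 libraries, computed on log2 CPM less the group mean. Mt1 with Mt2 (0.89), Tsc22d3 with Klf9 (0.76) and Sgk1 with Cebpd (0.75) have the highest values, and Fkbp5 with Sgk1 lies at -0.18.

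**Figure D5:**
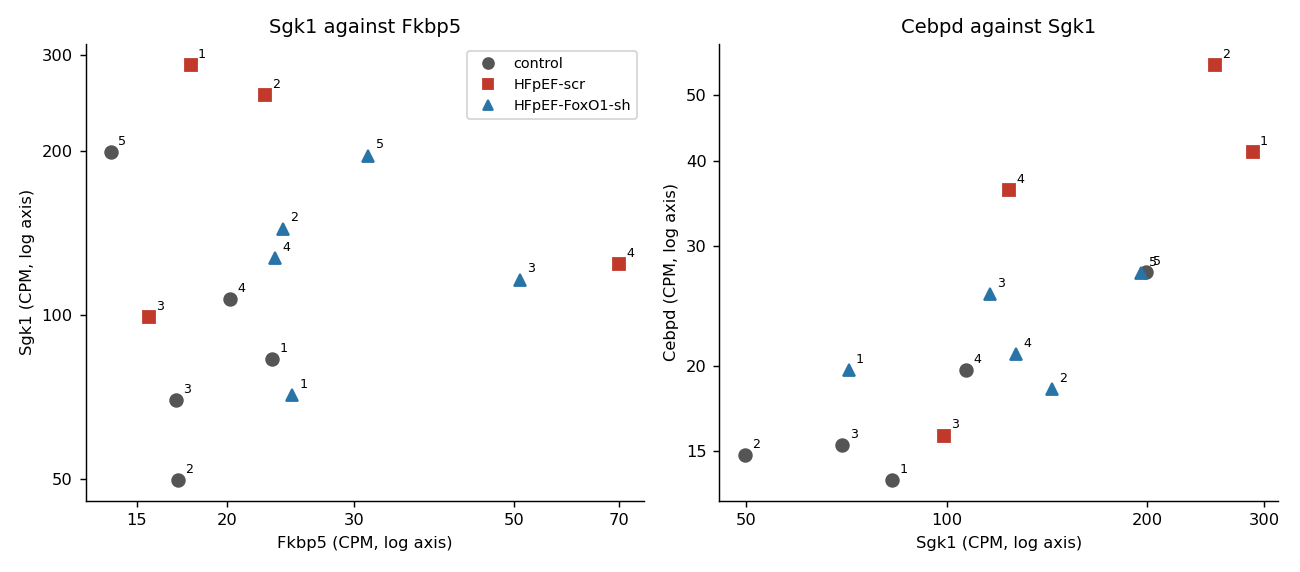
Sgk1 against Fkbp5 (left) and Cebpd against Sgk1 (right), in CPM on log axes, with the replicate number beside each library. HFpEF-scr 1 and 2 are high in Sgk1 and near the controls in Fkbp5, and HFpEF-scr 4 is the reverse, with 124 and 69.9 CPM.

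Among 11934 genes of at least 2 CPM, those most like each member over all 14 libraries differed from member to member. These r are descriptions over libraries that also share group differences. Each was picked from the top of 11934 values over 14 libraries, where a high r can arise by chance, and none was tested. Fkbp5 was most like Pik3r1, a subunit of PI3 kinase (r = 0.94), and Zbtb16 was most like Max, the partner of MYC (r = 0.92). Tsc22d3 was most like Plin4, a lipid droplet protein, and Cebpb, a relative of Cebpd (both r = 0.92). Sgk1 was most like Klf2, an endothelial transcription factor induced by flow, and Dusp6, a MAP kinase phosphatase (both r = 0.95). Cebpd was most like S1pr1, a sphingosine 1-phosphate receptor (r = 0.95), and Ddit4 was most like Fam107a (r = 0.91). Klf9 was most like Jade2 (r = 0.90), Mt2 was most like Tmem2 (r = 0.88), Mt1 was most like Gpihbp1 and Mt2 (both r = 0.86) and Nr3c1 was most like C2cd3 (r = 0.83).

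Other genes known to be induced by glucocorticoids were read beside the members. Of 16 listed and tested, 3 rose in HFpEF-scr against control and 0 fell (2 to 4 rose when any library was left out), with a median of 0.54 against 0.00 over all genes. Pdk4, which holds back glucose oxidation, rose from a mean of 441 to 1250 CPM (1.5 ± 0.24, adjusted p = 0.00192), and Fam107a, an actin-associated protein, rose by 1.79 ± 0.38 (adjusted p = 0.0116). Cdkn1a, a cell cycle inhibitor, rose by 1.39 ± 0.40 (adjusted p = 0.045), a call lost without control 2, 3 or 4 or HFpEF-scr 1 or 2. In HFpEF-FoxO1-sh against HFpEF-scr 0 rose and 1 fell, Cdkn1a (-2.03 ± 0.42, adjusted p = 0.0171, and 0.0528 without HFpEF-FoxO1-sh 1), and when any library was left out 0 to 3 rose and 0 to 1 fell. Against control 3 rose in the libraries labelled HFpEF-FoxO1-sh and 0 fell, with Pdk4 at 1.15 ± 0.23 (adjusted p = 0.00412), and the count was 1 to 3 when any library was left out.

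Of 15 tested genes for the receptor complex and for handling of the steroid, 1 rose in HFpEF-scr against control, Ptges3, which encodes the cochaperone p23 (0.25 ± 0.05, adjusted p = 0.00954), and 0 fell. Of 14 tested relatives of the members, 3 rose and 0 fell, and 1 to 4 rose when any library was left out. Cebpg rose by 0.36 ± 0.07 (adjusted p = 0.00568). Klf4 rose by 0.97 ± 0.24 (adjusted p = 0.0225, lost without control 3 or HFpEF-scr 2), and Cebpb by 0.60 ± 0.17 (adjusted p = 0.0469, lost without any of the 5 controls, HFpEF-scr 2 or HFpEF-scr 4). Of 10 genes for zinc handling, 0 were called in any of the 3 comparisons by edgeR, and Slc39a10, a zinc importer, was nearest in HFpEF-scr against control (0.28 ± 0.08, unadjusted p = 0.00439, adjusted p = 0.0546). In HFpEF-FoxO1-sh against HFpEF-scr none of the receptor complex genes and none of the relatives was called.

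Immediate early genes, which are transcribed within minutes of a stimulus, were read beside Sgk1 and Cebpd. Their summed level was highest in HFpEF-scr 2, HFpEF-scr 1 and control 5 (3980, 2720 and 2560 CPM), which were also the 3 libraries highest in Sgk1. The genes of this list differed in pattern. Fosb had 235, 468, 2.18 and 45.7 CPM in HFpEF-scr 1 to 4, 0.594 to 13 CPM in the controls and 0.863 to 10 CPM in the libraries labelled HFpEF-FoxO1-sh. Control 5 had 10.2 CPM of Fosb, far below HFpEF-scr 1 and 2. Ier3 had means of 20.6 CPM in the controls, 30.4 in HFpEF-scr and 33 in those labelled HFpEF-FoxO1-sh. Of 16 such genes 3 rose in HFpEF-scr against control (Fosb, Nr4a3 and Ier3), 0 fell and all 16 had a fold change above 0, with a median of 0.87. When any library was left out, 2 to 6 rose. In HFpEF-FoxO1-sh against HFpEF-scr 3 fell (Fosb, Nr4a3 and Fos, 1 to 4 when any library was left out), 0 rose and the median was -0.98. The summed level ran from 242 to 2560 CPM in the controls, from 677 to 3980 in HFpEF-scr and from 287 to 1690 in the libraries labelled HFpEF-FoxO1-sh. Their part in the results for Sgk1, Cebpd and the metallothioneins was not tested. Without HFpEF-scr 1 and 2, members called in HFpEF-scr against control were 1 instead of 3, and that was Zbtb16 (1.42, adjusted p = 0.0244), with 4.04% of all genes called. Of the 3 that lost their call, Tsc22d3 was at 0.64 (adjusted p = 0.0545), against 0.52 with all libraries. Ddit4 was at 1.01 (adjusted p = 0.0956), against 1.23, and Cebpd at 0.52, against 1.03.

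Clock genes also differed, and several of the members are known to follow the daily rhythm of the hormone. Arntl, which encodes the clock activator BMAL1, had 19.8, 5.71, 4.89, 1.95 and 3.41 CPM in controls 1 to 5, 7.53, 15.7, 7.11 and 2.41 CPM in HFpEF-scr 1 to 4, and 1.34 to 2.02 CPM in the libraries labelled HFpEF-FoxO1-sh. Every library of the last group was at or near the lowest level of the others, and HFpEF-scr 4, the library highest in Fkbp5 and Zbtb16, was the lowest of its own group. The controls showed no single direction. Control 1, the highest of them in Arntl, was also their highest in Fkbp5 (23.1 CPM) and Zbtb16 (108 CPM). Control 4, the lowest of them in Arntl, came next in both, with 20.2 and 96.3 CPM. Of 15 clock genes 0 were called in HFpEF-scr against control by edgeR, and 0 to 3 fell when any library was left out. In HFpEF-FoxO1-sh against HFpEF-scr 0 rose and 3 fell (Arntl, Clock and Bhlhe40). When any library was left out, 0 to 4 rose and 0 to 2 fell there. In HFpEF-FoxO1-sh against control 4 rose and 4 fell (1 to 5 and 2 to 4 when any library was left out), among them Cry1 (0.79 ± 0.15, adjusted p = 0.00325) and Nr1d1 (-0.63 ± 0.15, adjusted p = 0.0121). The part of harvest time in the members' results was not tested.

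Of 15 genes for hypoxia and amino acid stress, conditions that are also known to induce Ddit4, 2 rose and 1 fell in HFpEF-scr against control (0 to 5 rose when any library was left out). Ndrg1 rose by 0.30 ± 0.07 (adjusted p = 0.0198, lost without HFpEF-scr 4), and Slc2a1, a glucose transporter, fell by 0.67 on the log2 scale (adjusted p = 0.00664). Their part in the rise of Ddit4 was not tested.

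Markers of the cell types that a piece of ventricle could hold were counted next, with the range of counts when any library was left out. In HFpEF-scr against control 3 of 7 pericyte and smooth muscle markers rose (range 1 to 4, summed 471 to 527 CPM in the controls and 569 to 616 CPM in HFpEF-scr). Of 7 fibroblast markers 2 rose (range 1 to 2, 878 to 1020 and 920 to 1070 CPM), and of 7 endothelial markers 1 rose (range 0 to 2, 1050 to 1160 and 998 to 1440 CPM). Of 7 heart muscle markers 2 fell (range 0 to 4). In the libraries labelled HFpEF-FoxO1-sh 3 fibroblast markers fell against HFpEF-scr and against control in every such fit. These were Col3a1 (-1.07 in both), Col1a1 and Col1a2, which encode collagens, and the list summed to 679 to 855 CPM. The other 4 were above 0 against control, none called (Pdgfra 0.22, Dcn 0.14, Lum 0.24 and Tcf21 0.03), and the list's median was 0.03. Against HFpEF-scr 0 of the 7 were above 0, with a median of -0.34. All 7 macrophage markers were called as lower in HFpEF-FoxO1-sh against control (range 5 to 7), from 154 to 213 CPM down to 110 to 138 CPM in sum. Red cell markers summed to 6020, 861, 538 and 1110 CPM in HFpEF-scr 1 to 4 and to between 1030 and 1480 CPM in the controls, and 0 of 7 were called by edgeR. HFpEF-scr 1, the highest in red cell and in endothelial markers, was also the highest in Sgk1 and Mt2. HFpEF-scr 2, next in Sgk1 with 253 CPM, was below the controls in red cell markers and inside their range in endothelial markers (1130 CPM). The part of these cell types in the members' results was not tested, and in bulk tissue fewer cells of a type and less RNA per cell cannot be told apart.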

How the data were processed

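RNA of left ventricles was extracted with QIAzol and a column kit, enriched for poly(A) and made into libraries with a Swift Biosciences kit, per the labels' protocols. The authors deposited expected counts per gene, and the submitters' processing notes name Bowtie2 2.1.0, RSEM 1.2.15 and mm10. Annotation, read layout and strand are not given in the sources used here. RSEM divides reads that match several genes, and 15.1% to 16.4% of deposited expected counts per library were not whole. Those of Zbtb16 and Cebpd were not whole in any of the 14 libraries, those of Sgk1 in 2, and those of the other members were whole throughout.

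Expected counts were rounded and tested with edgeR 4.0.16 in R 4.3.3. Filtering used filterByExpr, scaling used TMM, and all 14 libraries entered a single quasi-likelihood model with a coefficient for each group. Each contrast was tested two-sided, with Benjamini-Hochberg adjustment over 13588 genes and a threshold of 0.05. The common biological coefficient of variation was 0.0999. Pairs of members were tested two-sided with 100000 reshuffles within groups, on log2 CPM with a prior count of 2. Methods were tested on simulated data with libraries drawn independently and, for edgeR, a spread set by the trend over all genes. A larger spread or a single high library, as in some members, was not simulated, so the stability of their calls was not tested there. No 2 libraries of a group were duplicates. Positions and exons are those of GENCODE vM21 on GRCm38. The members and gene lists were chosen with earlier results of these data known. Named genes were all members, Foxo1, the 2 genes most like each member and up to 4 of each list with the smallest p in HFpEF-scr against control. Arntl and the list genes singled out in the other comparisons were chosen after their values were seen.

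Alternatives were DESeq2 size factors, no filter, at least 10 counts in every library, the replicate number as a block, only the compared groups, each library left out, DESeq2 1.42.0 and limma voom (limma 3.58.1), and for pairs also a prior count of 0.5 and Spearman's rho. Leaving out HFpEF-scr 1 and 2 together was added after the data were seen.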

Additional observations from a re-analysis of the deposited data

Results flagged for a closer look

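In each of the 30 combinations of gene and group, the highest or lowest library was compared with its nearest neighbour by Dixon's test, which flags about 1 in 20 groups by chance. It set 2 libraries apart. Fkbp5 in HFpEF-scr 4 was 69.9 CPM, and the nearest of the other 3 libraries was at 22.6 CPM, a gap of 0.869 of the whole range where 0.829 is the limit for 4 libraries. Nr3c1 in control 1 was 124 CPM, and the nearest of the others was at 137 CPM, a gap of 0.758 of the range where 0.71 is the limit for 5 libraries. Control 1 is also the most deeply sequenced library.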

How the results depend on the processing

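Of 510 values of single members under the alternatives, 475 stayed on their side of the threshold, 27 lost a call, 8 gained one and 0 reversed. Most of the 510 belong to results not called in the main fit, so 475 does not measure how stable the calls were. In HFpEF-scr against control the call was lost in 7 of 17 alternatives for Tsc22d3, 5 of 17 for Ddit4 and 9 of 17 for Cebpd. That of Tsc22d3 in HFpEF-FoxO1-sh against control was lost in 6 of 17. Reversed here means a change of sign with a call in either fit. Signs did change where neither fit called the member. Klf9 went from 0.08 to -0.06 in HFpEF-scr against control, and Fkbp5 from -0.02 to 0.73 between the HFpEF groups. In HFpEF-scr against control 997 genes and 3 members were called. The fit of the 2 compared groups gave 504 genes and 1 member, leaving out HFpEF-scr 1 and 2 together gave 560 genes and 1 member, and leaving out each library gave 537 to 1106 genes and 0 to 5 members. In HFpEF-FoxO1-sh against HFpEF-scr 485 genes and 0 members were called, with 855 genes under DESeq2, 54 without HFpEF-scr 1 and 2, and 161 to 668 genes and 0 to 2 members without each library. In HFpEF-FoxO1-sh against control 1761 genes and 1 member were called. The fit of these 2 groups gave 2080 genes and 3 members, and leaving out each library gave 1229 to 1684 genes and 0 to 1 member. Pairs of members past the adjustment were 0, and 0 to 3 without each library. A fit with the replicate number as a block called 290 genes in HFpEF-FoxO1-sh against HFpEF-scr, and the count of members called stayed at 3, 0 and 1 in the 3 comparisons. The numbers do not pair the libraries, since deviations of same-numbered libraries correlated between -0.19 and 0.11 over 13 pairs and 2 of 14 libraries correlated best with their own number. Depth limits Mt2 most, with 58 to 240 counts per library, and the spread between libraries limits Zbtb16, Sgk1 and Fkbp5.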
